A study of Rattus norvegicus with 52 samples.

Results

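Snap25, Sv2b, Vgf and Vsnl1 are 4 of the 6028 genes named on a two-colour oligonucleotide array of rat dorsal root ganglia, and each had 1 probe. They serve secretion or calcium sensing and were selected on measured values, their large changes from the DR control after the DR lesion. Ranked among all named genes by their largest DR change from the DR control, Snap25 was at place 3, Vgf at place 4, Sv2b at place 13 and Vsnl1 at place 14. The DR values are therefore given as a description with no test, and only the SN values, which the choice did not use, were tested. At the edge of the choice, Tpbg at place 12 had a largest DR change of 1.63 and Sv2b 1.62 (log2), while Reg3a, which was not chosen, had 1.57 and Vsnl1 1.59.

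The arrays held RNA from ganglia L4 to L6 after a DR or an SN lesion, each at 6, 12, 24, 48 and 72 h and at 7 and 14 d, with 1 control group for each lesion, CON(DR) and CON(SN). DR and SN are not spelled out in the labels; they are known from the study as lesions of the dorsal root, the axon branch to the spinal cord, and of the sciatic nerve, the branch to the periphery. Each of the 16 groups was a single pool of 3 rats, read in 5 channels for DR12h, 4 for DR6h and for DR48h and 3 for every other group, in all 28 DR and 24 SN channels. Strain, sex, age, and whether the control animals had a sham operation are not given in the sources used here. The channels of a group are repeated hybridisations of 1 pool, so errors and p-values reflect how hybridisations of that pool scatter and nothing of how animals vary, and the lesion cannot be told apart from the animals that were pooled. In pooled whole ganglia, a change in the number of cells of a type cannot be told apart from a change in RNA per cell.

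The values are intensities on a linear scale, with channel medians between 120 and 125, and the number of arrays limits the precision. Over all probes, the root mean square distance of a channel from its group mean was 0.25 to 0.40 (log2) for 5 channels that an earlier analysis of these data had set apart, and 0.17 to 0.44 for the other 47. The 5 lay within the range of the other 47, but their median distance was larger, 0.39 against 0.28. Leaving them out moved no mean change of the 4 genes by more than its SE. Without 4 of them, all DR channels, the mean DR change was 1.83 for Snap25, 0.76 for Sv2b, 1.51 for Vgf and 1.24 for Vsnl1, and without the 1 SN channel, SN6h replicate 3, the mean SN change was 0.90, -0.39, 1.11 and 0.35 (log2).

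Neurons release transmitters and peptides by fusing vesicles with the cell membrane when calcium enters. SNAP-25, on the inner face of the cell membrane, joins syntaxin and a vesicle synaptobrevin in the SNARE complex that drives this fusion, and it is also needed for membrane addition in growing axons. SV2B is a membrane protein of synaptic vesicles and a relative of membrane transporters. VGF is a precursor that is sorted into dense core granules and cut into secreted peptides, and its gene was found as one induced by nerve growth factor. Visinin-like 1, the product of Vsnl1, is a neuronal calcium sensor that moves to membranes when it binds calcium. Sensory neurons in the ganglion send their synaptic vesicle proteins down both branches of the axon, to terminals in the spinal cord and in the periphery.

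The sequence just upstream of each start is shown because Vgf is known as a target of the transcription factor CREB, which binds the CRE motif, and because the genes are compared for moving together. RefSeq windows (GRCr8) were at hand for 3 of the 4 genes. Each run below is the 250 bases before the annotated start, 5′ to 3′ on the gene's own strand, and capitals mark every match on either strand to one of 6 motifs. The motifs were the CRE, spelled TGACGTCA, and the AP-1 site, spelled TGANTCA. An E-box was spelled CACGTG and a GC box was spelled GGGCGG. The TATA box was spelled TATAAA, and the last motif was the pentamer CCAAT.
Vgf, chr12:25277021-25277270, minus strand: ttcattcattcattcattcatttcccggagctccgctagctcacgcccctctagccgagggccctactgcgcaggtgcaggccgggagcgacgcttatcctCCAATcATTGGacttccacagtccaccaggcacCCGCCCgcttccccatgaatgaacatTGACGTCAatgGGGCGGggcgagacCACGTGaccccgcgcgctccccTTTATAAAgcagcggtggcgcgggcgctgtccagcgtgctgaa
Sv2b, chr1:138562259-138562508, minus strand: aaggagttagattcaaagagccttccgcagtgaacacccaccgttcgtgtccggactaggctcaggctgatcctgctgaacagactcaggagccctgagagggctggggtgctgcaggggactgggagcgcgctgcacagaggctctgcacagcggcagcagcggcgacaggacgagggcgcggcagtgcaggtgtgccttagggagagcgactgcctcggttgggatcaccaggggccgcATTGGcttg
Vsnl1, chr6:39878557-39878806, minus strand: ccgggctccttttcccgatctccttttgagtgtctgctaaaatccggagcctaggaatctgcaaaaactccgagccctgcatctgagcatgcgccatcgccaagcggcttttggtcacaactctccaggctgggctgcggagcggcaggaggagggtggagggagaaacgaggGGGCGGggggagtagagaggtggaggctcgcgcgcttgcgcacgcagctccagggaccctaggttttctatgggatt

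The Vgf window held 8 matches. Its CRE lay 90 to 83 bases before the start, between 2 GC boxes, and was followed by an E-box at 65 to 60 bases. Matches to the TATA box in both orientations overlapped at 43 to 36 bases, and a pair of CCAAT boxes in opposite orientations lay at 149 to 139 bases. Among 33469 rat promoter windows of this length, 1.59% held a CRE, 5.59% an E-box, 12.9% a TATA box, 30.5% a GC box and 34.0% the CCAAT pentamer. The Sv2b window held a single CCAAT match, 9 to 5 bases before the start, and the Vsnl1 window a single GC box at 77 to 72 bases. None of the 3 windows held an AP-1 match, which 6.34% of all windows had. A match is a run of letters and not a measured binding site.

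The 4 probes differed in brightness. The geometric mean over the 52 channels was an intensity of 4034 for Snap25, 2893 for Sv2b, 1910 for Vgf and 267 for Vsnl1, brighter than 97.3%, 95.5%, 92.5% and 69.2% of all probes. Levels of different probes are not compared further, since each probe has its own response. The spread between channels of a group, as the residual SD of the fit, was 0.24 (log2) for Snap25 and 0.26 for both Vgf and Vsnl1, near the median of all probes of 0.27. For Sv2b it was 0.44, larger than for 87.9% of probes, so Sv2b was measured with the least precision of the 4. The Cy5 minus Cy3 difference was 0.40 (log2) for Sv2b and -0.39 for Vgf, against -0.06 for Snap25 and -0.03 for Vsnl1, and the fits carried a dye term.

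Snap25 stood above its control at every time after the DR lesion and, after the SN lesion, from 12 h on with its highest level at 14 d. In the CON(DR) channels Snap25 had intensities of 1629, 1527 and 1861, at 6 h 6273, 5546, 4717 and 5574, at 12 h 6047, 4080, 6237, 6490 and 4443, and at 24 h 8524, 6724 and 9463. At 48 h after the DR lesion it had 4564, 6304, 4406 and 5438, at 72 h 6994, 4916 and 7847, at 7 d 5391, 6740 and 6680, and at 14 d 6250, 8622 and 4068. Every DR channel lay above every control channel, at 7 of 7 times. In order of time, 9.84%, 5.33%, 5.23%, 5.31%, 5.38%, 6.02% and 13.3% of all probes had all channels above the own control. The log2 change from CON(DR) was 1.71 ± 0.18 (SE) at 6 h, had its highest value of 2.27 ± 0.20 at 24 h, a 4.82-fold difference, and was 1.86 ± 0.20 at 14 d. Averaged over the 7 times it was 1.85 ± 0.15.

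In the CON(SN) channels Snap25 had 1617, 1774 and 1901, at 6 h 1677, 1597 and 1449, at 12 h 4148, 3350 and 3684, and at 24 h 3121, 3104 and 3423. At 48 h in the SN series the values were 3299, 2619 and 2524, at 72 h 2646, 2531 and 3051, at 7 d 3577, 3518 and 3042, and at 14 d 7827, 7679 and 8479. The 6 h channels overlapped the control, while all channels of the 6 later times lay above it and the 14 d channels lay above every other SN channel. From 12 h on, and in order of time, 7.2%, 7.9%, 12.2%, 6.85%, 5.13% and 9.9% of all probes had all channels above the own control.

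The SN course of Snap25 was called by a moderated F test over the 7 times (adjusted p = 9.2e-11, limma, with a largest change of at least 1.5-fold), as were 4.93% of all probes. Its mean change over the 7 SN times was 0.90 ± 0.15 (SE, log2), a 1.86-fold rise with an adjusted p of 0.000112, and 0.733% of probes were called higher in this way. This fit took channels as separate, while channels of an inferred array, explained below, correlated at 0.774. In a limma fit of differences within inferred arrays the mean was 0.95 ± 0.15 (adjusted p = 0.00194). There the course had an adjusted p of 2.65e-06, and 14 d had 2.16 ± 0.21 (adjusted p = 2.04e-05). By single times Snap25 rose at 12 h by 1.10 ± 0.20 (adjusted p = 0.00226), at 24 h by 0.89 ± 0.20 (adjusted p = 0.0146), at 7 d by 0.94 ± 0.20 (adjusted p = 0.00453) and at 14 d by 2.18 ± 0.20 (adjusted p = 9.35e-11). The shares of probes called higher at these times were 0.0828%, 0.284%, 0.651% and 1.47%. The changes of 0.69 ± 0.20 at 48 h (adjusted p = 0.0598) and 0.66 ± 0.20 at 72 h (adjusted p = 0.0789) did not pass. Both were called with only SN channels (adjusted p = 0.00497 and 0.00641), with the inferred array as a random block (adjusted p = 0.000926 and 0.0017) and against the mean of both control pools (adjusted p = 0.00582 and 0.0104). The 48 h change was also called with 50 added to each intensity (adjusted p = 0.0458) or with dim probes left out (adjusted p = 0.0482). At 14 d the level averaged 7995 ± 426 in SN channels and 1764 ± 142 in CON(SN) channels (SD, n = 3 each), a 4.54-fold difference. Within the SN series, without use of the control, the mean of 7 d and 14 d lay 1.09 ± 0.14 above the mean of 6 h and 12 h (adjusted p = 3.69e-07), and 2.7% of probes were called higher in this comparison. The 24 h change stayed at 0.82 to 0.97 when 1 channel was left out, but its call did not always hold. The call was lost without CON(SN) replicate 1 or 2, and also when any 1 of the SN24h channels was left out. The 7 d call was lost without CON(SN) replicate 1 or SN7d replicate 1, at changes of 0.86 to 1.02 over the channels left out.

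Sv2b did not keep a direction across the times of either lesion. In the CON(DR) channels Sv2b had 3757, 2044 and 2341, at 6 h 3891, 8907, 4788 and 4246, at 12 h 3337, 5611, 2743, 3341 and 2364, and at 24 h 2859, 2148 and 4817. At 48 h after the DR lesion it had 6253, 5223, 4006 and 3063, at 72 h 3947, 6772 and 4723, at 7 d 1353, 1958 and 2262, and at 14 d 8602, 9211 and 6616. All DR channels lay above the control at 3 of 7 times, 6 h, 72 h and 14 d, where 9.84%, 5.38% and 13.3% of probes had the same. At the other 4 times the channels overlapped the control, with the 7 d pool lowest. The change from CON(DR) was 1.62 ± 0.34 (SE, log2) at 14 d and -0.53 ± 0.34 at 7 d, with a mean of 0.70 ± 0.26 over the 7 times.

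In the CON(SN) channels Sv2b had 2594, 2957 and 1991, at 6 h 1826, 1657 and 3007, at 12 h 4145, 897 and 3200, and at 24 h 1734, 1732 and 1297. At 48 h in the SN series the values were 1508, 1488 and 2071, at 72 h 1229, 1847 and 1965, at 7 d 5573, 5086 and 3850, and at 14 d 2017, 1223 and 1122. The 7 d channels were the only SN group above all control channels, where 5.13% of probes had the same. The 24 h and 72 h channels lay below all control channels, as did those of 7.59% and 8.66% of probes. The 12 h channels spanned a wider range than any other SN group, from 897 to 4145.

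The SN course of Sv2b was called (adjusted p = 0.00405), but no single time was, and its mean change of -0.37 ± 0.26 (SE, log2) was not called (adjusted p = 0.907). At 7 d the change was 0.95 ± 0.34 with an adjusted p of 0.272 in the fit of separate channels and 1.90 ± 0.31 with an adjusted p of 0.00301 in a fit of differences within inferred arrays, which called 0.804% of probes higher at 7 d. That fit pairs the Cy5 and Cy3 channels that shared an array, which the files do not state and which were inferred by matching the channels to the authors' deposited coefficients. With the inferred array as a random block in limma, the 7 d change was 1.63 and was called (adjusted p = 1.03e-05). The authors' deposited table had 2.17 ± 0.72 (SE) at 7 d. As the arrays were inferred by matching to that table, the values that use them are not independent of it. Without a dye term the within-array fit no longer called the course (1.78 at 7 d, adjusted p = 0.491). The largest change in the SN course became a negative one, -1.13 without CON(SN) replicate 3, -1.02 without SN72h replicate 3 and -0.96 without SN14d replicate 1. No single direction of Sv2b across the 7 SN times was detectable with these arrays.

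Vgf stood above its control at every DR time and rose after the SN lesion from 24 h on. In the CON(DR) channels Vgf had 582, 865 and 1301, at 6 h 1435, 1710, 1508 and 1503, at 12 h 2652, 1495, 2480, 1644 and 2027, and at 24 h 3813, 3369 and 2153. At 48 h after the DR lesion it had 2455, 3236, 1639 and 3125, at 72 h 5527, 3059 and 2718, at 7 d 3100, 3962 and 4092, and at 14 d 2534, 1330 and 1524. No DR channel overlapped the control, whose own 3 channels ran from 582 to 1301. At single DR times, 5.23% to 13.3% of all probes had all channels above the own control. The lowest channel after the DR lesion was 1330, at 14 d, close to the highest control channel. The change from CON(DR) was 0.76 ± 0.20 (SE, log2) at 6 h, 2.09 ± 0.21 at 7 d, a 4.25-fold difference, and 0.99 ± 0.21 at 14 d, with a mean of 1.43 ± 0.16.

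In the CON(SN) channels Vgf had 931, 941 and 812, at 6 h 849, 843 and 705, at 12 h 834, 1002 and 1136, and at 24 h 1648, 2026 and 2246. At 48 h in the SN series the values were 2487, 2618 and 2289, at 72 h 2079, 2866 and 2606, at 7 d 2158, 2574 and 2546, and at 14 d 2348, 3589 and 3670. The 6 h and 12 h channels overlapped the control, and all channels of the 5 later times lay above every earlier SN channel and every control channel. At single times from 24 h on, 5.13% to 12.2% of all probes had all channels above the own control.

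The SN course of Vgf was called (adjusted p = 3.11e-11), and its mean change was 1.12 ± 0.16 (SE, log2), a 2.17-fold rise (adjusted p = 8.07e-06). The changes at 6 h (-0.17 ± 0.21, adjusted p = 0.906) and 12 h (0.27 ± 0.21, adjusted p = 0.956) were not called. Vgf rose by 1.26 ± 0.21 at 24 h (adjusted p = 0.000361), by 1.44 to 1.61 at 48 h, 72 h and 7 d (adjusted p of at most 1.61e-05) and by 1.81 ± 0.21 at 14 d (adjusted p = 5.63e-08). Of all probes, 1.21% were called higher at 48 h and 0.982% at 72 h. The level at 14 d averaged 3202 ± 741 in SN channels and 895 ± 71.8 in CON(SN) channels (SD, n = 3 each), a 3.52-fold difference. The mean of 7 d and 14 d lay 1.57 ± 0.15 above the mean of 6 h and 12 h (adjusted p = 2.69e-10), a 2.98-fold difference within the SN series. Leaving out any single channel kept all 5 single-time calls and the mean between 1.08 and 1.18. In the within-array fit without a dye term the mean was 0.83 (adjusted p = 0.59) and no Vgf value but the difference of late from early times was called, while with the dye term the mean was 0.93 (adjusted p = 0.00445) and 0.804% of probes were called higher. Vgf had a dye difference of -0.39, given above.

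Vsnl1 stood above its control at every DR time and, in the SN series, at 14 d. In the CON(DR) channels Vsnl1 had 176, 178 and 161, at 6 h 330, 569, 366 and 379, at 12 h 402, 389, 510, 401 and 357, and at 24 h 506, 468 and 598. At 48 h after the DR lesion it had 438, 414, 253 and 488, at 72 h 417, 416 and 533, at 7 d 229, 390 and 421, and at 14 d 419, 605 and 385. All DR channels lay above the control channels, which were close together. The share of all probes with this was 5.23% to 13.3% at single DR times. The change from CON(DR) was between 0.97 ± 0.22 (SE, log2) at 7 d and 1.59 ± 0.22 at 24 h, a 3.02-fold difference, with a mean of 1.29 ± 0.16.

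In the CON(SN) channels Vsnl1 had 141, 164 and 130, at 6 h 170, 133 and 136, at 12 h 217, 179 and 173, and at 24 h 173, 181 and 202. At 48 h in the SN series the values were 228, 157 and 173, at 72 h 127, 156 and 168, at 7 d 175, 164 and 137, and at 14 d 320, 327 and 281. The 12 h, 24 h and 14 d channels lay above the CON(SN) channels, as did those of 7.2%, 7.9% and 9.9% of all probes. Of these 3 times, only the 14 d channels of Vsnl1 also lay above the CON(DR) channels. Up to 7 d all SN channels stayed between 127 and 228, below the 14 d channels.

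The SN course of Vsnl1 was called (adjusted p = 0.0063), and 14 d was its only called time, with a rise of 1.10 ± 0.22 (SE, log2) and an adjusted p of 0.00126. The level at 14 d averaged 309 ± 24.8 in SN channels and 145 ± 17.3 in CON(SN) channels (SD, n = 3 each), a 2.14-fold difference. The mean over 7 SN times was 0.35 ± 0.16 (adjusted p = 0.529), and the late minus early difference 0.41 ± 0.15 (adjusted p = 0.117), neither of them called. The course call was lost without SN14d replicate 1 (adjusted p = 0.0536) or replicate 2 (adjusted p = 0.051), while the change at 14 d ran from 1.03 to 1.18 over all channels left out. In the within-array fit without a dye term the 14 d change was 0.88, not called (adjusted p = 0.06).

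**Figure D1:**
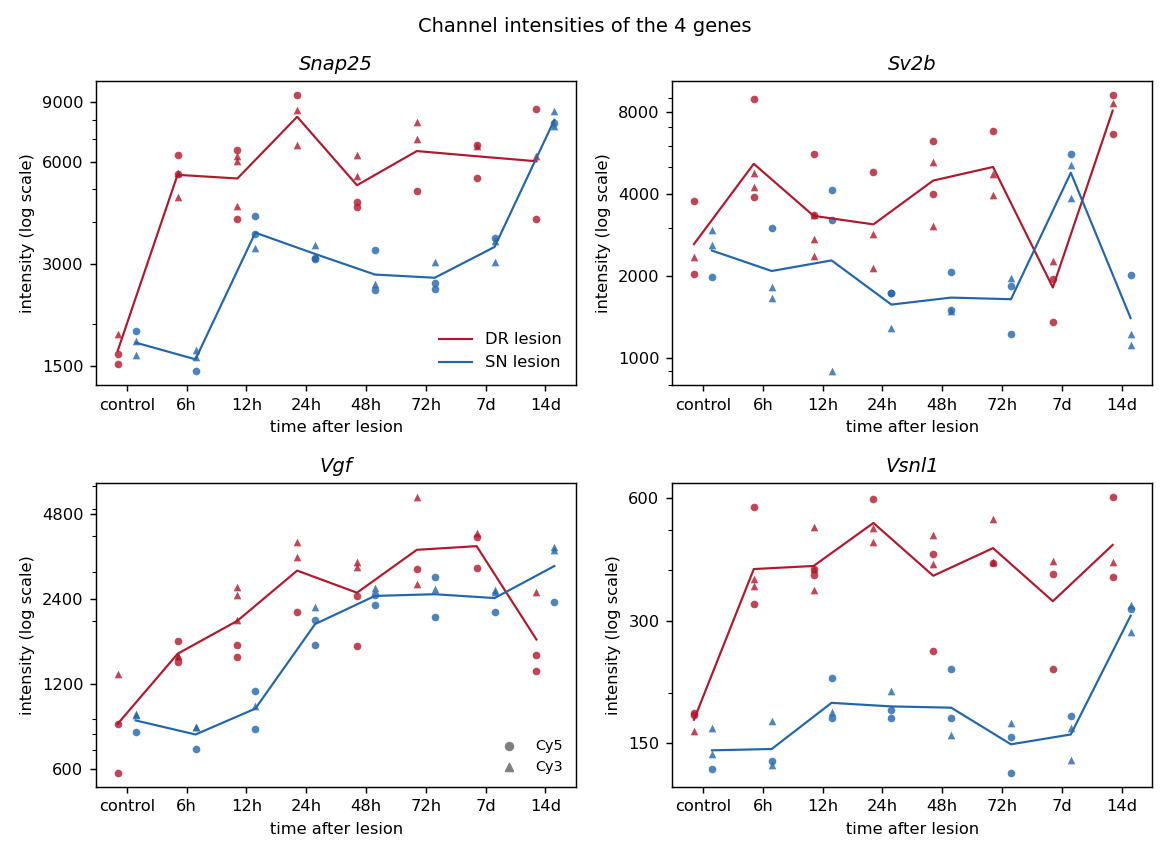
Intensity (log axis) of each channel of the 4 genes, by time after the lesion, with the control at the left. Red marks the DR series and blue the SN series, circles are Cy5 and triangles Cy3 channels, and lines join the geometric means of the groups. Snap25, Vgf and Vsnl1 lie above the control at every DR time, while in the SN series Snap25 steps up at 12 h and again at 14 d, Vgf at 24 h, and Vsnl1 at 14 d.

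Side by side, the gap between the 2 lesions was widest at 6 h for Snap25 (DR minus SN 1.88, log2) and Vgf (0.92), at 72 h for Vsnl1 (1.33) and at 14 d for Sv2b (2.44). At 6 h the change of Snap25 was 1.71 after the DR lesion and -0.16 after the SN lesion (log2), that of Sv2b 1.04 and -0.25, that of Vsnl1 1.22 and 0.01, and that of Vgf 0.76 and -0.17. At 14 d the order was turned for 2 of these genes: Snap25 had 1.86 after DR and 2.18 after SN, and Vgf 0.99 after DR and 1.81 after SN, while Vsnl1 had 1.42 after DR and 1.10 after SN. In the fit of separate channels the DR change was above the SN change at 7 of 7 times for Vsnl1, 6 of 7 for Snap25, 6 of 7 for Sv2b and 5 of 7 for Vgf. The share of all probes with such counts is not given here. Within arrays, Vgf at 14 d had 1.33 ± 0.22 after DR and 1.46 ± 0.23 after SN (SE), and Snap25 1.63 ± 0.21 and 2.16 ± 0.21. At 48 h Vgf had 1.89 after DR and 1.27 after SN within arrays, against 1.48 and 1.59 in the fit of separate channels. Since the DR values chose the genes, these differences were not tested. The DR and SN arrays formed separate loops with separate control pools. The channels of the control pools overlapped for each gene. CON(DR) and CON(SN) averaged 1672 ± 171 and 1764 ± 142 for Snap25, 2714 ± 915 and 2514 ± 488 for Sv2b, 916 ± 362 and 895 ± 71.8 for Vgf, and 172 ± 9.29 and 145 ± 17.3 for Vsnl1 (SD, n = 3 each).

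Ordered by their mean level over all 16 pools, Snap25 was highest in DR24h (8237 ± 1392) and SN14d (7995 ± 426), which overlapped, and lowest in SN6h (1574 ± 116). Of its 15 pairs of neighbouring pools 2 did not overlap: DR48h above SN12h, and SN72h above CON(SN). These breaks set apart a top group of all 7 DR pools with SN14d, a middle group of the 5 SN pools from 12 h to 7 d, and a bottom group of both controls with SN6h. Vgf was highest in DR72h (3768 ± 1533) and DR7d (3718 ± 539), and its only break lay between DR6h and SN12h, with both controls, SN6h and SN12h below it. Vsnl1 was highest in DR24h (524 ± 66.8), and its only break lay between SN14d and SN12h, with all DR pools above. Sv2b was highest in DR14d (8143 ± 1357) and lowest in SN14d (1454 ± 490), and all 15 of its neighbouring pairs overlapped. Since the DR values chose the genes, the high place of the DR pools in these orders is a description and was not tested. How many of all probes had such breaks is not given here.

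On 6 of the inferred arrays a lesion pool met its own control directly, which gives a ratio from 1 array. For Snap25 the log2 ratio of lesion over control was 1.99 at DR12h, 2.39 at DR24h and 1.53 at DR7d, and 1.23 at SN12h, 0.95 at SN24h and 0.89 at SN7d. Vgf had 1.62, 2.71 and 1.25 at the same DR times, and -0.17, 0.82 and 1.66 at the same SN times. Vsnl1 had 1.18, 1.52 and 0.51 after DR, and 0.40, 0.30 and 0.34 after SN. Sv2b had 0.71, -0.39 and -0.79 after DR, and 0.49, -0.58 and 1.35 after SN. Each is a single array with no dye correction. Snap25 and Vsnl1 were above 0 on all 6, Vgf on 5 and Sv2b on 3. These channels are also part of the fits above, and the DR values chose the genes. The share of all probes above 0 on these arrays is not given here.

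The size of the DR changes depended on the source. In the authors' deposited table, read here as log2, the mean DR change was 1.58 for Snap25, 0.55 for Sv2b, 1.16 for Vgf and 0.56 for Vsnl1, against 1.80, 0.71, 1.64 and 1.01 in the within-array fit. The mean SN changes in the authors' deposited table were 0.99, 0.42, 1.04 and 0.36, against 0.95, 0.06, 0.93 and 0.33 in the within-array fit. Across all probes, the values of the authors' deposited table were a median 0.51 of the within-array values without dye term for DR (438 values of at least 1 in size) and 0.86 for SN (929 values). DR sizes from that table are therefore not set against its SN sizes here, and the cause was not tested. In both sources the largest changes of Snap25 were at DR24h and SN14d.

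**Figure D2:**
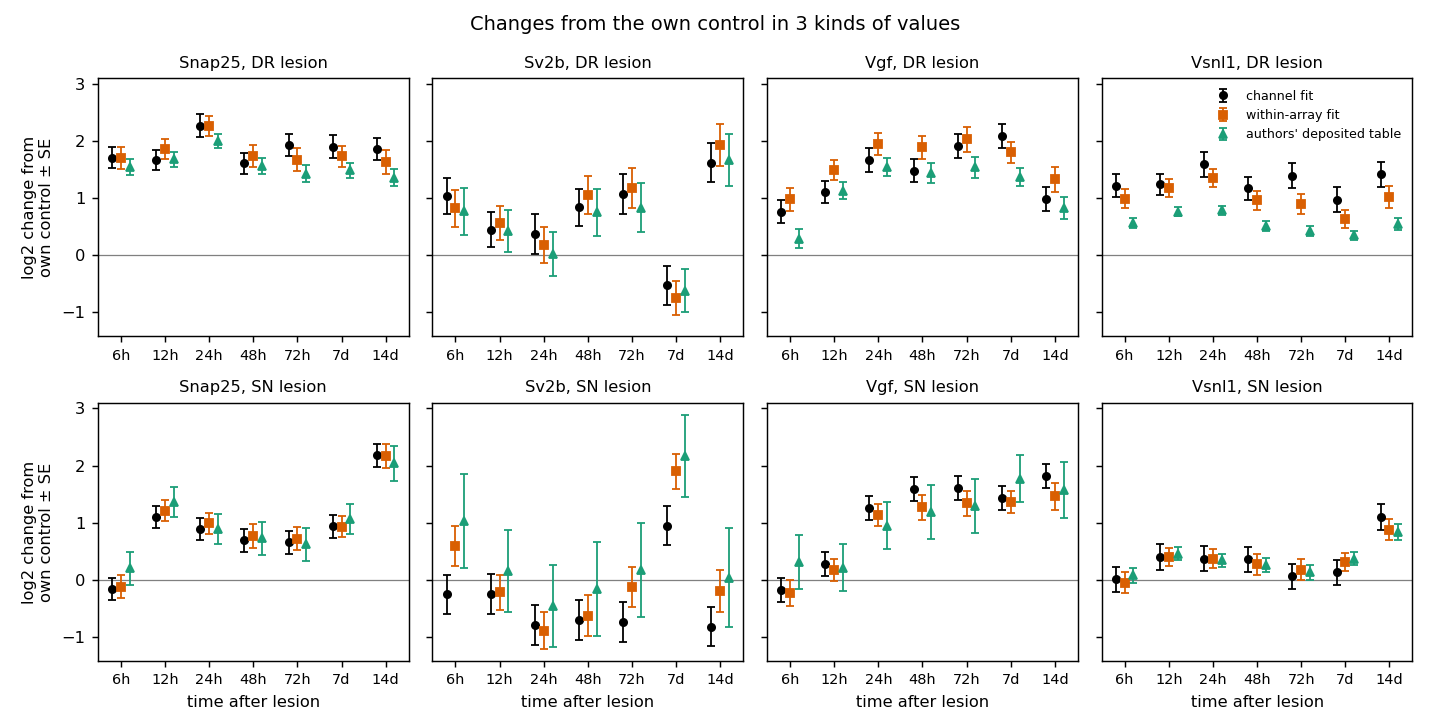
Log2 change from the own control ± SE (vertical axis) against time after the lesion, for the 4 genes after the DR lesion (top row) and the SN lesion (bottom row). Black circles are the channel fit, orange squares the within-array fit and green triangles the authors' deposited table. For Vsnl1 after DR the deposited values of 0.35 to 0.79 lie below the channel values of 0.97 to 1.59, and for Sv2b after SN the deposited errors of 0.72 to 0.86 are wider than those of the other genes.

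Among themselves Snap25, Vgf and Vsnl1 had positive correlations over all pools and within the SN pools, and Sv2b had negative ones with each of them in the SN pools. Over the 16 pool means Pearson's r was 0.88 for Snap25 with Vsnl1, 0.74 for Snap25 with Vgf, 0.54 for Sv2b with Vsnl1, 0.53 for Vgf with Vsnl1, 0.32 for Snap25 with Sv2b and 0.00 for Sv2b with Vgf. The points share arrays and control pools, and all 4 genes were chosen to be high in DR pools, so these values are a description. Within the 7 SN pools alone, which the choice did not use, r was 0.90 for Snap25 with Vsnl1, 0.59 for Snap25 with Vgf, 0.42 for Vgf with Vsnl1, -0.18 for Snap25 with Sv2b, -0.19 for Sv2b with Vgf and -0.41 for Sv2b with Vsnl1. The 0.90 includes SN14d, the highest SN pool of both genes. Within the 7 DR pools r was 0.61, 0.48, -0.16, -0.22, -0.62 and 0.52 for the same pairs in the same order.

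The genes most like each of them were sought among 1149 genes whose 16 pool means had an SD of at least 0.3 (log2). Most like Snap25 were Cat (r = 0.953), which encodes catalase, Chn1 (0.916), a Rac-directed GTPase-activating protein of neurons, and Elovl6 (0.891), a fatty acid elongase. Cat had a change of 1.29 at DR24h and 1.63 at SN14d, its largest in each lesion, as Snap25 did. Most like Vsnl1 were Fbxo11 (0.947), an F-box protein, Map1b (0.943), a microtubule-associated protein of growing axons, and Itga6 (0.941), an integrin subunit that binds laminin. Their mean SN changes were -0.08, -0.22 and -0.24, and their mean DR changes 0.39, 1.15 and 0.98. The likeness was weaker for the others: Vgf had Cyp1b1 (0.802), a cytochrome P450, Reg3a (0.786), a secreted lectin, and Gbp2 (0.778), a guanylate-binding protein. Sv2b had Pex5l (0.802), a partner of neuronal HCN channels, Gnao1 (0.785), a neuronal G protein subunit, and Zfp422 (0.765), a zinc finger protein. The r values are over 16 pools that share arrays.

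**Figure D3:**
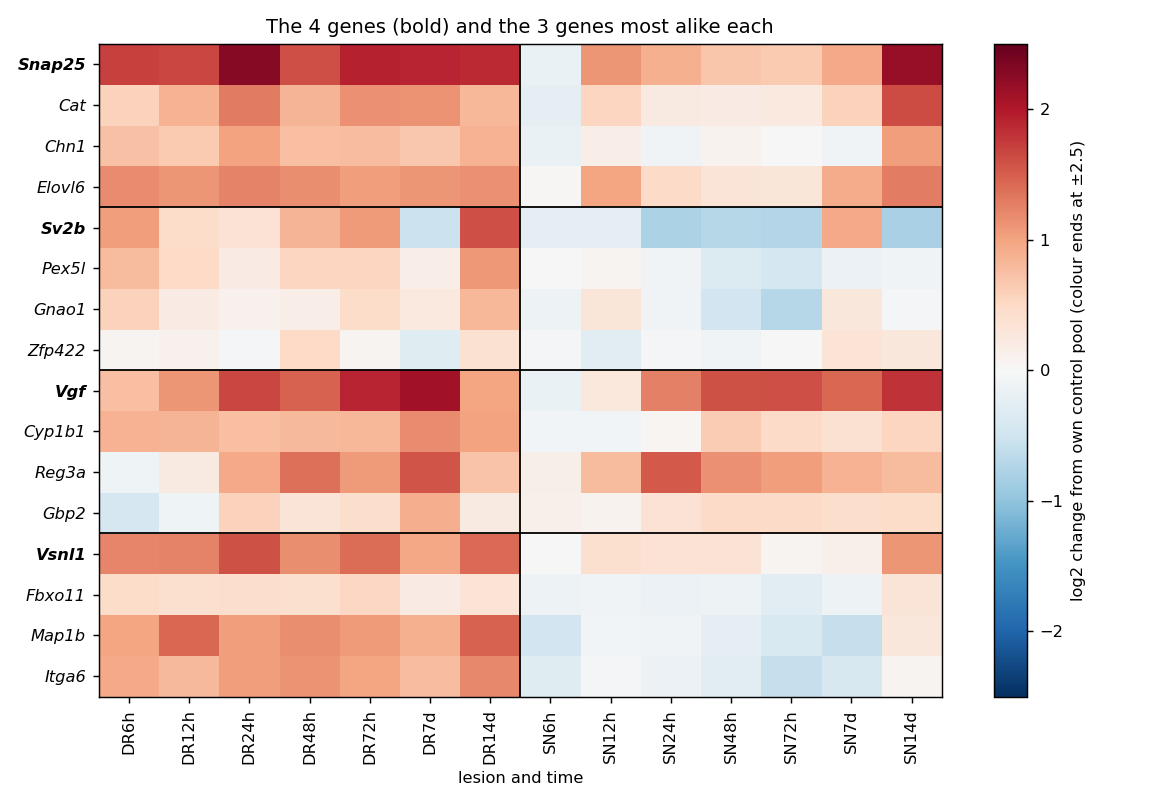
Log2 change from the own control pool (colour) at each DR and SN time for the 4 genes, in bold, each above the 3 genes whose 16 pool means were most like its own. Snap25 and Cat are both highest at DR24h among DR times and at SN14d among SN times, and the genes grouped with Vsnl1 are high across DR times and near 0 or below in most SN times.

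None of 6 close relatives of the 4 genes was called in either lesion by limma, or by its within-array fit. Snap23, the widely expressed relative of SNAP-25, had a mean change of 0.20 ± 0.19 (SE, log2) after DR (adjusted p = 0.636) and 0.08 ± 0.19 after SN (adjusted p = 1.0), with a dim probe of intensity 72.9. Sv2a, the most widespread SV2 form, had -0.24 ± 0.12 after DR (adjusted p = 0.275) and -0.08 ± 0.12 after SN (adjusted p = 1.0), and Sv2c had -0.05 ± 0.17 after DR (adjusted p = 0.911) and -0.09 ± 0.17 after SN (adjusted p = 1.0). The calcium sensors closest to Vsnl1 were likewise not called: hippocalcin (Hpca) had -0.27 ± 0.15 after DR and 0.14 ± 0.15 after SN, Hpcal1 0.11 ± 0.15 and -0.26 ± 0.15, and neurocalcin delta (Ncald) -0.15 ± 0.17 and -0.02 ± 0.17, with adjusted p values of 0.318 or more. A p that misses the threshold does not show that these genes stayed level.

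In 5 lists of related genes, 168 were measured apart from the 4. By the mean change over 7 times, 16 were called higher and 4 lower after DR, where 3.81% and 2.81% of all probes were called, and 5 higher and 0 lower after SN, where 0.733% and 0.556% were. The DR count depended on the control channels: without CON(DR) replicates 1, 2 or 3 it was 8, 7 or 6 higher. Without replicate 1 the calls over all probes, either way, also fell from 560 to 278. Within arrays 9 list genes were higher, where 2.15% of all probes were called higher and 2.65% lower. Where a list below had 0 calls, limma's unadjusted p was below 0.05 after SN for 1 higher and 3 lower synaptic genes, 1 higher and 2 lower dense core granule genes and 0 higher and 5 lower calcium sensor genes, and after DR for 2 higher neuropeptides, 5 lower dense core granule genes and 0 lower CREB responsive genes. After SN, 3 neuropeptides and 1 CREB responsive gene were lower at that limit. The within-array fit also had 0 calls in each of these but for 1 dense core granule gene that fell after DR.

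Of 68 synaptic vesicle and SNARE genes, 9 rose and 1 fell after DR and 0 changed after SN. The median change was 0.13 after DR and -0.06 after SN, while the median of all probes was 0.00 in both. Rab3a, a small GTPase of synaptic vesicles, rose by 0.98 ± 0.16 (SE, log2) after DR (adjusted p = 6.84e-05), and by 0.81 within arrays (adjusted p = 0.00727), and had -0.31 ± 0.16 after SN (adjusted p = 0.651). Its DR change exceeded its SN change by 1.29 ± 0.23 (adjusted p = 0.000706), and 2.9% of probes were called either way in this difference. Rims2, an active zone scaffold, had 0.81 ± 0.24 after DR (adjusted p = 0.0304), and the syntaxins Stx7 and Stx4 had 0.66 ± 0.18 (adjusted p = 0.0197) and 0.59 ± 0.14 (adjusted p = 0.00509). These 3 were not called within arrays, where their adjusted p values were 0.127, 0.389 and 0.0543, and 4 genes of the list rose and 2 fell.

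Of 22 dense core granule and prohormone processing genes, 1 rose and 0 fell after DR and 0 changed after SN, with medians of -0.09 and -0.02. The 1 was Pcsk7, a proprotein convertase, at 0.42 ± 0.13 (adjusted p = 0.042; 0.191 within arrays). Of 26 neuropeptides and neurotrophins, 0 rose and 1 fell after DR, and 4 rose and 0 fell after SN. Nmb, which encodes neuromedin B, fell by 0.84 after DR (SE 0.12, adjusted p = 4.77e-06). After SN, galanin (Gal) rose by 2.36 ± 0.50, neuropeptide Y (Npy) by 2.18 ± 0.35, vasoactive intestinal peptide (Vip) by 1.65 ± 0.20 and urocortin (Ucn) by 1.35 ± 0.14 (adjusted p of at most 0.00508), and after DR these 4 had 0.43, 0.52, 0.27 and 0.19, none of them called.

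Of 32 calcium sensor and calmodulin pathway genes, the channel fit called 3 higher and 2 lower after DR and 0 after SN. Within arrays 2 were called higher and 1 lower after DR. Camk1, a calmodulin-dependent kinase, rose by 0.69 ± 0.19 (adjusted p = 0.018) and Necab1, a neuronal calcium-binding protein, by 0.59 ± 0.15 (adjusted p = 0.00954; 0.231 within arrays). S100a4, a calcium-binding protein also made by fibroblasts and immune cells, fell by 0.77 (SE 0.11, adjusted p = 1.34e-05). Camk2g had -1.57 ± 0.40 (adjusted p = 0.0124) in the channel fit but 0.21 within arrays (adjusted p = 0.54), so its direction is not given. Of 20 CREB and neurotrophin responsive genes, 3 rose after DR and 1 after SN, and 0 fell after either. Atf3, a stress-inducible transcription factor, rose by 1.87 ± 0.17 after DR (adjusted p = 1.94e-10) and 3.15 ± 0.17 after SN (adjusted p = 1.49e-17). Jun and Jund, subunits of AP-1, rose by 0.79 ± 0.20 (adjusted p = 0.0124) and 0.76 ± 0.20 (adjusted p = 0.0128) after DR. Within arrays Jund had 0.44 (adjusted p = 0.042), while Jun had 0.59 and was not called (adjusted p = 0.174). Within arrays 2 genes of this list were called higher after DR and 3 after SN, where 2.15% and 0.804% of all probes were. With the inferred array as a random block the list counts were 4 and 4, and against the mean of both control pools 4 and 5. Calls over all probes, either way, also rose in these settings. The random block called 998 after DR and 291 after SN, and the mean of both control pools 987 and 529. The channel fit called 560 and 109. Whether the list rose more than all probes was not tested.

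**Figure D4:**
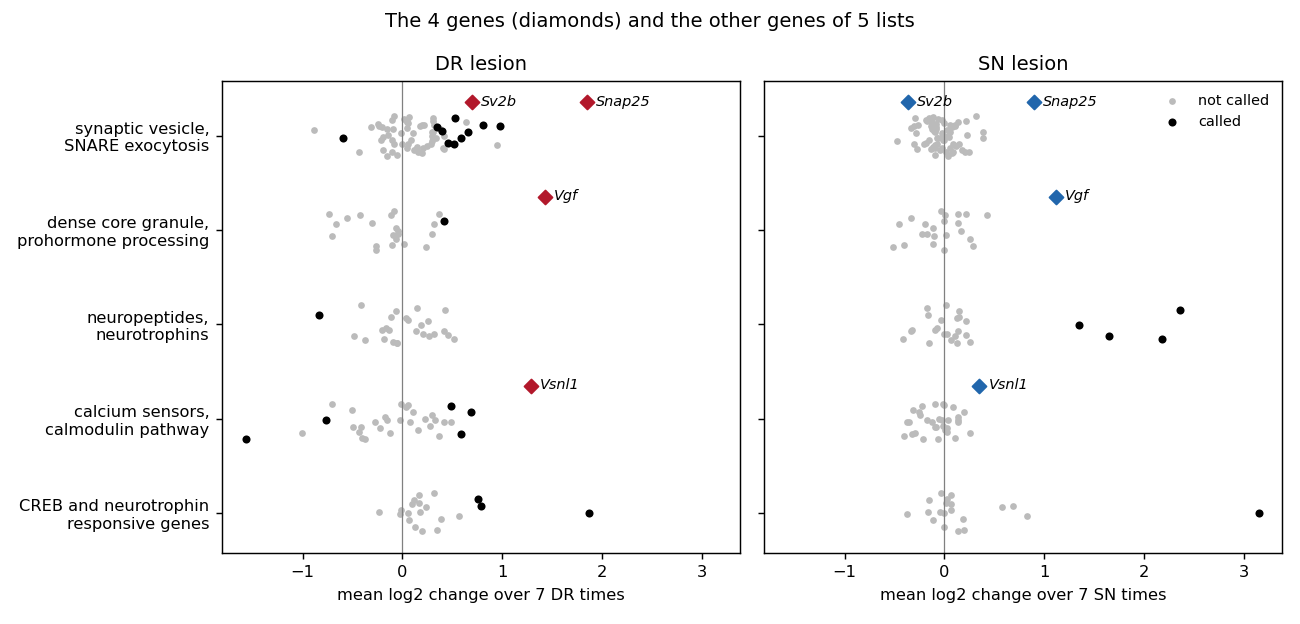
Mean log2 change over the 7 times (horizontal axis) after the DR lesion (left) and the SN lesion (right) for the genes of 5 lists (rows). Black points were called at an adjusted p below 0.05 and grey points were not, vertical scatter within a row is only for legibility, and diamonds are the 4 genes, whose DR values chose them. In both panels Snap25, Vgf and Vsnl1 lie to the right of all other genes of their lists, though the SN mean of Vsnl1 (0.35) was not called.

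Markers of the cell types in the ganglion were read beside these values. All 10 sensory neuron markers were measured, led by Nefm at an intensity of 62473, and 1 of them, Calca, lay below the channel median. Their summed intensity was 164380 to 186605 in DR pools and 196915 in CON(DR), and 161676 to 188787 in SN pools and 176776 in CON(SN). Sums of intensities follow the brightest probes, here Nefm, Nefl and Prph, and are no measure of cell numbers. Nefl (-0.07 ± 0.13 after DR) and Prph (0.09 ± 0.11) were not called in either lesion. Uchl1 rose by 0.47 ± 0.12 after DR (adjusted p = 0.0156) and Nefm fell by 0.52 (SE 0.16, adjusted p = 0.0383), and none was called after SN. Within arrays Nefm was called (adjusted p = 0.041), with a change of -0.94 after DR, and Uchl1 was not (0.54, adjusted p = 0.0949). The sum of 7 of 9 glial markers was 46030 to 56543 in DR pools and 41612 in CON(DR), and 35686 to 52233 in SN pools and 49508 in CON(SN), with Gfap called higher in both lesions. This sum was led by Pmp22, at an intensity of 42119. Pmp22 was not called after DR (0.30 ± 0.14, adjusted p = 0.22) or after SN (-0.19 ± 0.14, adjusted p = 0.92). Of 4 measured macrophage markers 1 rose after DR and 3 after SN, with sums of 1143 to 2022 in DR pools and 1205 in CON(DR), and 1365 to 2576 in SN pools and 1200 in CON(SN). Of the 3 called after SN, Aif1 was called within arrays (adjusted p = 0.0163) and Csf1r (adjusted p = 0.229) and Ctss (adjusted p = 0.0553) were not. Of 7 neutrophil and mast cell markers 5 fell after DR and 6 after SN. Their sums were 737 to 1692 in DR pools and 1696 in CON(DR), and 538 to 1340 in SN pools and 1758 in CON(SN). Of 3 red cell markers, led by Hbb, 2 fell after DR and 1 after SN, with sums of 4339 to 12246 in DR pools and 9968 in CON(DR), and 2931 to 13399 in SN pools and 12590 in CON(SN). For 2 fibroblast markers 1 rose after DR, with sums of 2374 to 4783 in DR pools and 2367 in CON(DR), and none changed after SN. Of 2 endothelial, 5 central nervous tissue and 2 muscle markers 0 were called in either lesion, with central nervous sums of 904 to 2409 in DR pools and 1998 in CON(DR), and the muscle markers, at intensities of 49.6 and 53.9, below the channel median. The part of these cell types in the changes of Snap25, Sv2b, Vgf and Vsnl1 was not tested.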

How the data were processed

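Values were 52 channels of two-colour arrays, deposited by the authors as normalised intensities on a linear scale; how they were normalised is not given in the sources used here. The authors also deposited a table of log2 coefficients and standard errors against time zero; its log base is not stated and was taken as log2. The submitters' processing notes name limma, with no version. The planned model allowed for linear values, so log2 was taken with no pseudocount, no filter and no further normalisation. All 8455 probes were fitted with group and dye in limma 3.58.1 (R 4.3.3), and p-values were adjusted by Benjamini-Hochberg across the probes of each contrast. Calls needed an adjusted p below 0.05 and, for courses and single times, a change of 1.5-fold or more. The fit was tested on simulated data. The annotation listed 7075 probes, 6907 with 1 symbol and 168 with several, the latter left unnamed, and the other 1380 are unnamed here; the probe of highest mean stood for a gene. The 26 arrays were inferred by joining a Cy3 with a Cy5 channel within a lesion so that their difference lay near that of the deposited coefficients, with no nearer Cy5 channel in 24 joins. Channels of an inferred array correlated at 0.774 after the fit, which the channel fit does not model. Named genes were the 4 members, the 3 genes most like each, 6 relatives whatever their values, and up to 4 called genes of each list and lesion with the largest mean change. The 4 genes and all lists were chosen with earlier results of these data known. Alternatives were another dye, scaling, filter, control, pseudocount or array treatment, and each channel left out. Motifs were searched as exact letters in RefSeq windows.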

Additional observations from a re-analysis of the deposited data

Results flagged for a closer look

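At some times every channel of a gene lay on one side of its control mean after the DR lesion and on the other side after the SN lesion. These differences, DR change minus SN change on the log2 scale, were not tested. The share of all probes with such a pattern is not given here. Snap25 differed by 1.88 at 6 h and Vgf by 0.92 at 6 h. Sv2b differed by 1.55 at 48 h, 1.80 at 72 h, -1.47 at 7 d and 2.44 at 14 d, so its sign turned at 7 d and turned back.

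For list genes the mean DR change minus the mean SN change was tested in limma, where 2.9% of all probes were called. Of 168 list genes 13 were called, 8 with DR above SN and 5 with DR below SN, and 6 of the 13 were also called within arrays. Among the genes named for their large changes, the difference was 1.29 for Rab3a (adjusted p = 0.000706), 0.92 for Necab1 (adjusted p = 0.0078), -0.67 for Nmb (adjusted p = 0.0149), -0.91 for S100a4 (adjusted p = 0.000706), -1.16 for Ucn (adjusted p = 0.000531), -1.38 for Vip (adjusted p = 0.00276) and -1.29 for Atf3 (adjusted p = 0.00108). Within arrays Necab1 (adjusted p = 0.177) and Nmb (adjusted p = 0.118) were not called and the other 5 were. The other 6 list genes had differences of 0.82 for Syt4 (adjusted p = 0.0149), 0.87 for Ppp3r1 (adjusted p = 0.0204), 0.78 for S100b (adjusted p = 0.0353), 0.44 for Syp (adjusted p = 0.0431), 0.72 for Kcnip1 (adjusted p = 0.0442) and 0.51 for Slc17a7 (adjusted p = 0.0451). Of these, Syp was called within arrays (adjusted p = 0.0403).

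Of the 16 groups, 3 had 4 or 5 channels, which gave 12 sets over the 4 genes, and in these no channel was flagged as an outlier. Single channels still lay away from the rest of their group. Sv2b at DR6h had 8907 beside 3891, 4788 and 4246, and Vsnl1 at DR48h had 253 beside 438, 414 and 488. The other 13 groups, of 3 channels each, were not tested in this way.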

How the results depend on the processing

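All member calls below are from limma, and the cause of each move was not tested. The replicate numbers of the labels did not pair the channels: deviations of same-numbered channels correlated at a median of 0.009, against -0.011 for other numbers, and only 6 of 21 SN and 5 of 21 DR pairs with the control passed 0.1. With the replicate block the mean SN change of Snap25 was 0.90 (adjusted p = 0.000176), and no call of the 4 genes changed. Only SN channels: the Vsnl1 late minus early difference of 0.41 was called (adjusted p = 0.0299), 1 list gene was lower after SN, and 217 probes were called by the SN mean, against 109. Only DR channels: 4 list genes were higher and 222 probes called, against 16 and 560. Within arrays: Vsnl1 had a DR mean of 1.01 and 9 list genes were higher after DR. Within arrays without dye term: calls were lost for the Sv2b course (1.78), the Vgf course (1.46, adjusted p = 0.0831) and the Vgf SN mean (0.83), the DR means of Vgf and Vsnl1 were 1.75 and 1.02, 51 probes were called after SN and 110 after DR, and 2 list genes were higher after DR. Inferred array as random block: late minus early was called for Sv2b (0.56, adjusted p = 0.0408) and Vsnl1 (0.41, adjusted p = 0.00549), list counts were 9 higher and 3 lower after SN and 12 lower after DR, and 291 SN and 998 DR probes were called. Mean of both controls: list counts were 13 higher and 4 lower after SN and 11 lower after DR, with 529 SN and 987 DR probes called. The authors' deposited table gave 0.77 for Snap25 late minus early, DR means of 1.58 (Snap25), 1.16 (Vgf) and 0.56 (Vsnl1) and an SN mean of 0.42 for Sv2b. Leaving out 1 channel each time, the largest SN change of Sv2b ran from -1.13 to 1.14, with -1.02 and -0.96 also below 0, that of Vsnl1 from 1.03 to 1.18, calls over all probes from 58 to 140 after SN and 278 to 760 after DR, and list genes after DR from 6 to 18 higher and 3 to 8 lower.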
